A study of Homo sapiens with 10 samples.

Results

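Prostaglandin metabolism was represented here by 6 genes, PLA2G4A, PTGS2, PTGES, PTGES3, HPGD and PTGR1, out of 10780 genes for which at least 1 intron was listed in any library. Members were every intron and exon of the deposited splicing tables whose GRCh37 splice sites match these genes in the GENCODE annotation, which gave 66 of 126404 introns and 114 of 270665 exons. The 6 genes were chosen by name, with earlier results of these data known. Their differences in read counts between the conditions may have entered that choice, and the values used are not recorded, so the fits over all genes are given for them as a description and support nothing about them as a group. All libraries came from A549, an established human lung adenocarcinoma cell line, and were made from polyadenylated RNA with a strand-specific kit. There were 2 libraries per condition and 10 in all: α-amanitin at 1 µg/mL and at 2 µg/mL, each for 24 h, DRB at 10 µg/mL and at 25 µg/mL, and the DMSO control that every dose was set against. How long the cells were kept in DRB or DMSO is not stated in the labels or the methods. α-Amanitin, a toxin of death cap mushrooms, slows elongation by RNA polymerase II, and DRB is a nucleoside analogue that blocks the kinases needed for productive elongation. Libraries of a condition are called bioreplicates and are not said to come from separate cultures, so that p-values measure only the spread between these libraries, which may be technical.

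Prostaglandins are lipid signals made on demand from membrane phospholipids. A cytosolic phospholipase releases arachidonic acid, a cyclooxygenase turns it into prostaglandin H2, and terminal synthases convert that into prostaglandin E2, the form best known from lung tumours and inflamed epithelium. The signal is ended by a dehydrogenase and a reductase acting in sequence. PLA2G4A encodes the phospholipase and PTGS2 the inducible cyclooxygenase COX-2. PTGES encodes the inducible membrane-bound prostaglandin E synthase, whereas PTGES3 encodes p23, described as a cytosolic prostaglandin E synthase and much better known as a cochaperone of HSP90. HPGD encodes the dehydrogenase that oxidises prostaglandins to their inactive keto form, and PTGR1 encodes a reductase of those keto products and of other reactive carbonyl lipids.

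The exons and splice sites on which the splicing results turn lie in PTGES3 and PTGR1, both on the minus strand of GRCh37, and are shown 5′ to 3′ with exon bases in capitals and intron bases in lower case. PTGES3 exon 3 occupies chr12:57066524-57066593 and has 70 nt, which is not a multiple of 3. PTGES3 exon 6 occupies chr12:57059988-57060050 and has 63 nt, a multiple of 3. PTGR1 exon 4 occupies chr9:114355206-114355262 and has 57 nt, also a multiple of 3. All 3 are coding, and each is shown with 20 intron bases on either side. They are shown because reads that skip them were more frequent, or listed only, in DRB-treated cells.
PTGES3 exon 3, chr12:57066504-57066613: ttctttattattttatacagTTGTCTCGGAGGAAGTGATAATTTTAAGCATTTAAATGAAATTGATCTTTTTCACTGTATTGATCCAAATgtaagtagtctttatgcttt
PTGES3 exon 6, chr12:57059968-57060070: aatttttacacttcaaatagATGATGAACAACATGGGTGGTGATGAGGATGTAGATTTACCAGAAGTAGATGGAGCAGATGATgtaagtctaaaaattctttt
PTGR1 exon 4, chr9:114355186-114355282: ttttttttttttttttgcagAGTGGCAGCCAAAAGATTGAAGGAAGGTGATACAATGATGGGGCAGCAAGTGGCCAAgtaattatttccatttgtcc
The last pair are acceptor sites used at 25 µg/mL DRB by reads that leave PTGES3 exons and land beyond the annotated end of the gene, each shown with 20 intron and 10 exon bases.
Acceptor with first exon base 57046363, chr12:57046354-57046383: ttttttttttttccattcagGTTCCATTTA
Acceptor with first exon base 57046119, chr12:57046110-57046139: gcccgactctcctgcctcagCCTGCCGATC

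The libraries held 2899344 to 6498515 split reads, that is, reads that cross a splice junction. At 25 µg/mL DRB 45513 and 60620 introns were listed, against 74739 to 90955 in the other conditions. An intron without a competing junction is listed only from 11 split and unspliced reads upward, so that a member listed in no row may still have had up to 10 reads per intron, and a gene's value of 0 means unlisted. For low genes the inclusion reads of the internal exons, which count reads at both ends of an exon and so reach the listing minimum sooner, are given as well. Levels are split or inclusion reads per 1000000 split reads in genes (CPM), with each library's total scaled by the trimmed mean of M values (TMM). TMM raised the median log2 fold change of all genes at 25 µg/mL DRB by 0.48 over scaling to total split reads, and even then this median was -1.01. Epithelial and A549 markers were listed for 8 of 11 genes in DMSO and 6 of 11 at 25 µg/mL DRB, with summed levels of 3705 to 3805 CPM at 10 µg/mL DRB, 8388 to 8995 CPM at 25 µg/mL DRB and 5998 to 6670 CPM in DMSO. At 10 µg/mL DRB 0 of the 8 tested were called higher and 4 lower, where 14.9% of all genes were called. At 25 µg/mL DRB 4 were higher and 3 lower, where 61.3% of all genes were called. The 3 lower were AKR1B10, AKR1C1 and KRT18 (log2 fold changes of -6.91, -7.97 and -1.76). Of the 4 higher, KRT8 and ALDH1A1 depended on the scaling (log2 fold changes of 0.61 and 0.40 with TMM, 0.13 and -0.10 with total split reads). Of 14 markers of leukocytes, endothelium and fibroblasts, 13 were at 0 in every library and the fibroblast collagen COL1A1 had 0 to 677 split reads. In bulk RNA, fewer cells expressing a gene and less RNA per cell cannot be told apart.

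Per intron of the canonical transcript, the members in DMSO were ordered PTGES3 (86.8 CPM per intron, mean of 2 libraries), PTGES, HPGD, PTGR1, PLA2G4A and PTGS2 (0.61 CPM per intron). PTGES had 22.9 and 15.8 CPM per intron in the 2 DMSO libraries, HPGD 17.4 and 11.9 and PTGR1 14.4 and 14.2, so that these neighbours overlapped. PTGES3 lay above, and PLA2G4A and PTGS2 below, all of them in both DMSO libraries. Unlisted introns enter these levels as 0, which lowers PLA2G4A and PTGS2 most.

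**Figure D1:**
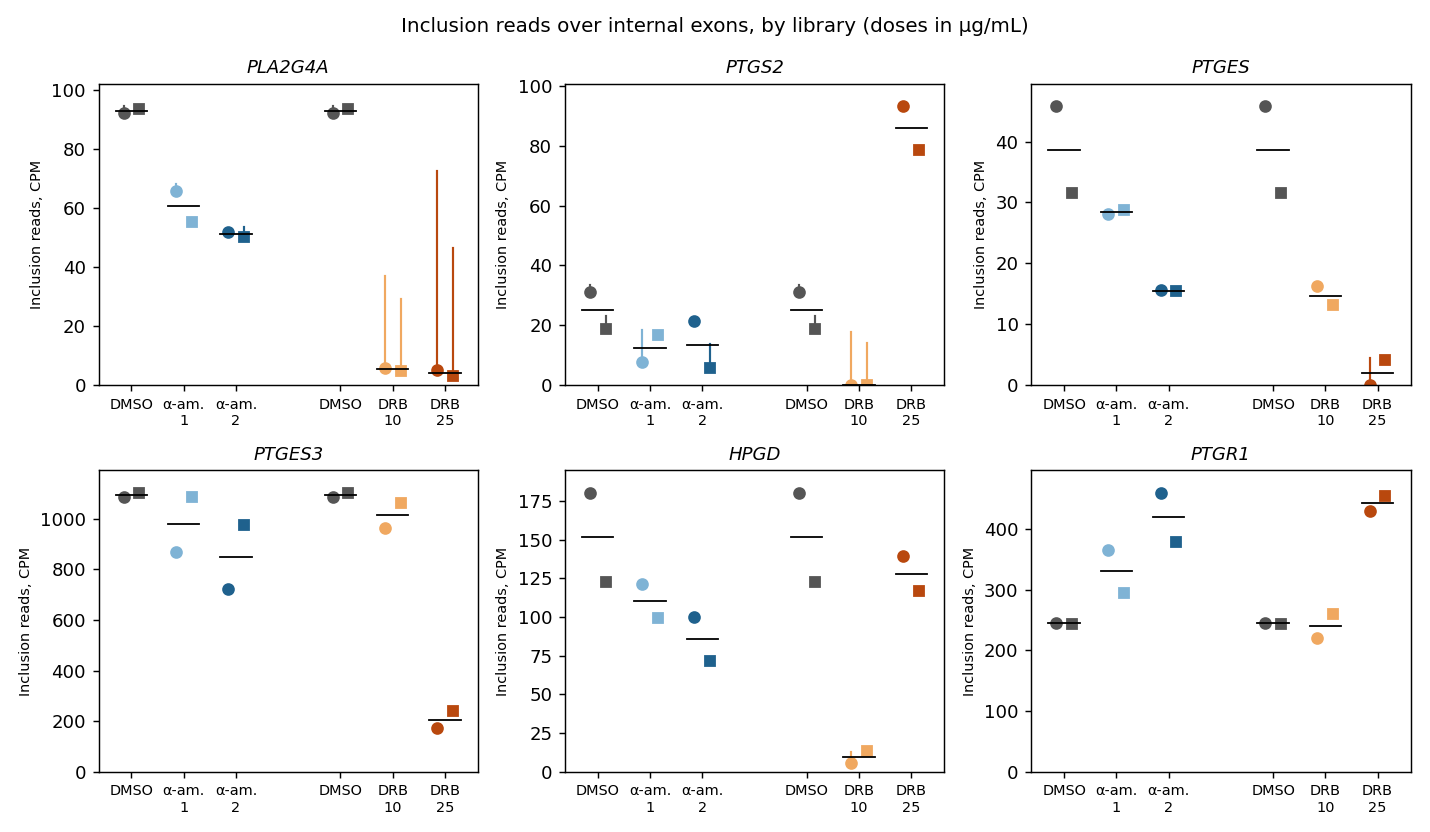
Inclusion reads over the annotated internal exons of each gene, in CPM (vertical axis), by condition (horizontal axis, each drug's doses low to high beside DMSO), with a circle and a square for the 2 libraries and a bar for their mean. Thin lines run up to the level reached if every unlisted exon held 10 reads. HPGD was at 5.80 and 13.1 CPM at 10 µg/mL DRB but at 139 and 117 CPM at 25 µg/mL, and PTGR1 was highest at 25 µg/mL DRB and 2 µg/mL α-amanitin.

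Whether the drugs changed the expression of these genes was asked first over whole genes. At 1 µg/mL α-amanitin 0 of the 6 members passed an adjusted p of 0.05 (limma-voom, Benjamini-Hochberg over all genes), as did 0% of the 9609 genes tested, with 2 members and 973 genes under an unadjusted p of 0.05. At 2 µg/mL 3 of 6 members were called, against 6.38% of all genes: PTGR1 was higher, and PLA2G4A and PTGES were lower. With the replicate number as a block 5 of 6 were called at this dose, HPGD and PTGES3 being lower as well, against 22% of all genes (1038 higher and 1076 lower), and at 1 µg/mL 0 members and 12 genes. With 10 µg/mL DRB 3 of 6 were called, all lower (PLA2G4A, PTGS2 and HPGD), against 14.9% of the 9460 genes tested. With 25 µg/mL DRB 5 of 6 were called, with PTGS2 and PTGR1 higher and PLA2G4A, PTGES and PTGES3 lower, against 61.3% of all genes, so that being called there sets a gene little apart. With 1 library left out the member count at 2 µg/mL α-amanitin was 0 without either DMSO library or the first α-amanitin library and 1, PTGR1, without the second. At 10 µg/mL DRB it was 0 without any of the 4 libraries, as was the count over all genes. At 25 µg/mL it was 3 (PTGS2, PTGES3 and PTGR1) without either DRB library and 4 without either DMSO library, where PLA2G4A no longer passed the filter on low counts. All 4 comparisons share the DMSO libraries. With 2 libraries per condition, groups can easily lie apart without any change, and the share of all genes that did so was not counted. Statements below that libraries did not overlap, or lay above or below DMSO, therefore only describe the values. Between the doses, 0 of 6 members and 0% of genes differed at 2 against 1 µg/mL α-amanitin (2 members and 1257 genes under an unadjusted p of 0.05), and 5 of 6 members and 63.2% of genes differed at 25 against 10 µg/mL DRB (2 of 6 without either library at 25 µg/mL). At that comparison PTGS2, HPGD and PTGR1 were higher and PTGES and PTGES3 lower at the higher dose.

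The direction of calls over all genes moved with the scaling. With TMM 237 genes were higher and 376 lower at 2 µg/mL α-amanitin, and with total split reads 308 were higher and 298 lower. The splits with TMM were 779 higher and 626 lower at 10 µg/mL DRB, 1913 higher and 3889 lower at 25 µg/mL DRB, and 1847 higher and 4128 lower at 25 against 10 µg/mL DRB. With total split reads they were 1163 and 584, 1347 and 4897, and 1193 and 5511, higher first.

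PLA2G4A (ENSG00000116711.10_6, chr1:186798081-186958113, plus strand), the enzyme that starts the pathway, was called lower at 2 µg/mL α-amanitin and at both doses of DRB. At 1 µg/mL α-amanitin it had 111 and 166 split reads (23.9 and 23.7 CPM), and at 2 µg/mL 80 and 126 (14.3 and 19.9 CPM), against 182 and 158 (42.2 and 32.4 CPM) in DMSO. In CPM the groups did not overlap at either dose. The log2 fold change was -0.62 at 1 µg/mL (adjusted p = 0.468) and -1.09 ± 0.25 (SE) at 2 µg/mL (adjusted p = 0.0497). Scaling by total split reads took the higher dose to an adjusted p of 0.0552, and counting exon inclusion reads gave -0.82 with an adjusted p of 0.0279. At either dose of DRB no intron of the gene was listed. Its 16 internal exons gave 26 and 28 inclusion reads at 10 µg/mL DRB and 11 and 11 at 25 µg/mL, against 399 and 457 in DMSO. Even with 10 reads for each unlisted exon, PLA2G4A was at least 2.80-fold lower at 10 µg/mL DRB and at least 1.56-fold lower at 25 µg/mL DRB than in DMSO. With total split reads these bounds were 2.48-fold and 2.17-fold. Both doses were called on split reads (adjusted p = 0.0101 and 0.000611), and neither call held when every unlisted member intron was given 10 reads, where the log2 fold change was -0.65 at 10 µg/mL and turned to 0.095 at 25 µg/mL (adjusted p = 0.164 and 0.761).

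PTGS2 (ENSG00000073756.13_9, chr1:186640923-186650054, minus strand), whose product COX-2 is the committed step, was near the listing minimum everywhere except at 25 µg/mL DRB. There it had 90 and 149 split reads (40.6 and 43.0 CPM), against 38 and 11 (8.80 and 2.25 CPM) in DMSO. All 8 internal exons were listed in both libraries at this dose, with 207 and 272 inclusion reads (93.3 and 78.4 CPM), against 134 and 92 (31.0 and 18.8 CPM) in DMSO. Both DRB libraries lay above both DMSO libraries. The rise was at least 3.05-fold over DMSO with unlisted exons at 10 reads, or at least 2.18-fold with scaling to total split reads. The log2 fold change was 3.19 ± 0.58 (SE) on split reads (adjusted p = 0.00555), 1.94 on exon inclusion reads (adjusted p = 0.00268) and 1.23 with unlisted introns at 10 reads (adjusted p = 0.0142). No intron or internal exon was listed in either library at 10 µg/mL DRB. With TMM this left PTGS2 at least 1.57-fold lower than in DMSO, and with total split reads at least 1.38-fold lower. With total split reads the first library's upper bound, 20.6 CPM, lay above the second DMSO library, at 19.5 CPM, so overlap is possible. The call at this dose (adjusted p = 0.0263) was lost with unlisted introns at 10 reads, where the log2 fold change was -0.18 (adjusted p = 0.761). Between the doses PTGS2 was at least 5.39-fold higher at 25 than at 10 µg/mL DRB, or at least 3.40-fold higher with total split reads. α-Amanitin gave no clear level: 36 and 118 inclusion reads at 1 µg/mL and 119 and 36 at 2 µg/mL, so the libraries of a dose differed more than the doses.

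PTGES (ENSG00000148344.11_8, chr9:132500610-132515321, minus strand) has only 2 introns, and both were listed with the other conditions but not at 25 µg/mL DRB. It had 131 and 202 split reads at 1 µg/mL α-amanitin (28.2 and 28.8 CPM) and 87 and 98 at 2 µg/mL (15.6 and 15.5 CPM), against 198 and 154 in DMSO (45.9 and 31.5 CPM). In CPM both doses lay below both DMSO libraries, and the higher dose lay below the lower. The log2 fold change was -0.39 at 1 µg/mL (adjusted p = 0.575) and -1.26 ± 0.26 (SE) at 2 µg/mL (adjusted p = 0.0399). At 10 µg/mL DRB PTGES had 73 and 75 split reads (16.3 and 13.1 CPM), a log2 fold change of -1.33 ± 0.36 (SE) from DMSO that missed the threshold (adjusted p = 0.0651). Its internal exon at 25 µg/mL was unlisted in the first library and had 14 inclusion reads in the second, at least 9.06-fold lower than in DMSO (adjusted p on split reads 0.000736). Junction reads into an alternative 122-nt exon at chr9:132511800-132511921 numbered 4 and 4 at 1 µg/mL α-amanitin and 4 and 6 at 2 µg/mL, and none were listed in DMSO. Its pooled inclusion was 0.025 and 0.0495 at those doses, against 0 in DMSO, which did not pass (adjusted p = 0.47 and 0.147).

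PTGES3 (ENSG00000110958.16_8, chr12:57057125-57082192, minus strand) was by far the most abundant member in DMSO, and its own largest fall was at 25 µg/mL DRB. It had 228 and 494 split reads (103 and 142 CPM) at this dose, against 2598 and 2996 (602 and 614 CPM) in DMSO. Both DRB libraries lay far below both DMSO libraries. The log2 fold change was -2.30 ± 0.16 (SE, adjusted p = 0.000553), which is 1.29 below the median of all genes. The lower DRB dose left it at 2476 and 3381 split reads (553 and 591 CPM), with a log2 fold change of -0.04 (adjusted p = 0.85). With α-amanitin it had 489 and 602 CPM at 1 µg/mL and 398 and 540 CPM at 2 µg/mL, and the fold change at the higher dose, -0.38 ± 0.16 (SE) on the log2 scale, did not pass without the replicate block (adjusted p = 0.182) and passed with it (-0.37, adjusted p = 0.0428). The genome also holds processed pseudogenes of PTGES3, and how reads matching both were assigned is not stated in the sources used here, so its counts are uncertain to that extent.

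HPGD (ENSG00000164120.14_10, chr4:175411326-175444305, minus strand), the first enzyme of prostaglandin breakdown, was nearly lost at 10 µg/mL DRB and well expressed at 25 µg/mL. Its internal exons had 26 and 75 inclusion reads (5.80 and 13.1 CPM) at 10 µg/mL DRB, against 779 and 600 (180 and 123 CPM) in DMSO. Of its introns only intron 4 was listed at this dose, with 12 reads in the second library. HPGD was at least 11.1-fold lower than in DMSO with unlisted exons at 10 reads, or at least 9.76-fold lower with total split reads. The log2 fold change on exon inclusion reads was -4.00 (adjusted p = 0.0107, and 0.0187 on split reads). At 25 µg/mL DRB it had 181 and 239 split reads (81.6 and 68.9 CPM), against 451 and 349 (104 and 71.5 CPM) in DMSO. The log2 fold change there was -0.24 ± 0.38 (SE, adjusted p = 0.594), and it was -0.77 with total split reads (adjusted p = 0.103), neither of which shows that the levels were alike. Between the doses HPGD was at least 9.36-fold higher at 25 than at 10 µg/mL DRB, or at least 5.90-fold higher with total split reads. At 1 µg/mL α-amanitin it had 70.7 and 57.6 CPM and at 2 µg/mL 57.3 and 40.8 CPM, with a log2 fold change at the higher dose of -0.83 ± 0.24 (SE, adjusted p = 0.0845). With the replicate block this change passed (-0.83, adjusted p = 0.00602).

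PTGR1 (ENSG00000106853.20_11, chr9:114312002-114362173, minus strand), the reductase that follows HPGD in the pathway, was the member that rose with α-amanitin. It had 902 and 1087 split reads (194 and 155 CPM) at 1 µg/mL and 1335 and 1264 (239 and 200 CPM) at 2 µg/mL, against 560 and 622 (130 and 127 CPM) in DMSO. Neither dose overlapped DMSO. The log2 fold change was 0.42 at 1 µg/mL (adjusted p = 0.468) and 0.77 ± 0.15 (SE) at 2 µg/mL (adjusted p = 0.0341). PTGR1 had 118 and 137 CPM at 10 µg/mL DRB, a log2 fold change of 0.03 (adjusted p = 0.897). The higher DRB dose gave 503 and 831 split reads (227 and 240 CPM), a log2 fold change of 0.85 ± 0.12 (SE, adjusted p = 0.00263). This rise depended on the scaling: with total split reads it was 0.35 (adjusted p = 0.0537). With either scaling it lay 1.85 above the median of all genes. A change of scaling moves all genes by nearly the same amount, so this distance cannot test whether the rise is real.

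Along PTGR1 each of the 9 canonical introns had more reads, and a higher CPM, in both libraries at 2 µg/mL α-amanitin than in either DMSO library, for example 260 and 213 against 96 and 122 at intron 5 and 72 and 86 against 34 and 18 at intron 9. In HPGD at 25 µg/mL DRB all 6 canonical introns were listed, with 17 to 58 reads each, whereas all but intron 4 were unlisted at 10 µg/mL. The change of either gene was thus spread over its whole length and did not rest on 1 junction.

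**Figure D2:**
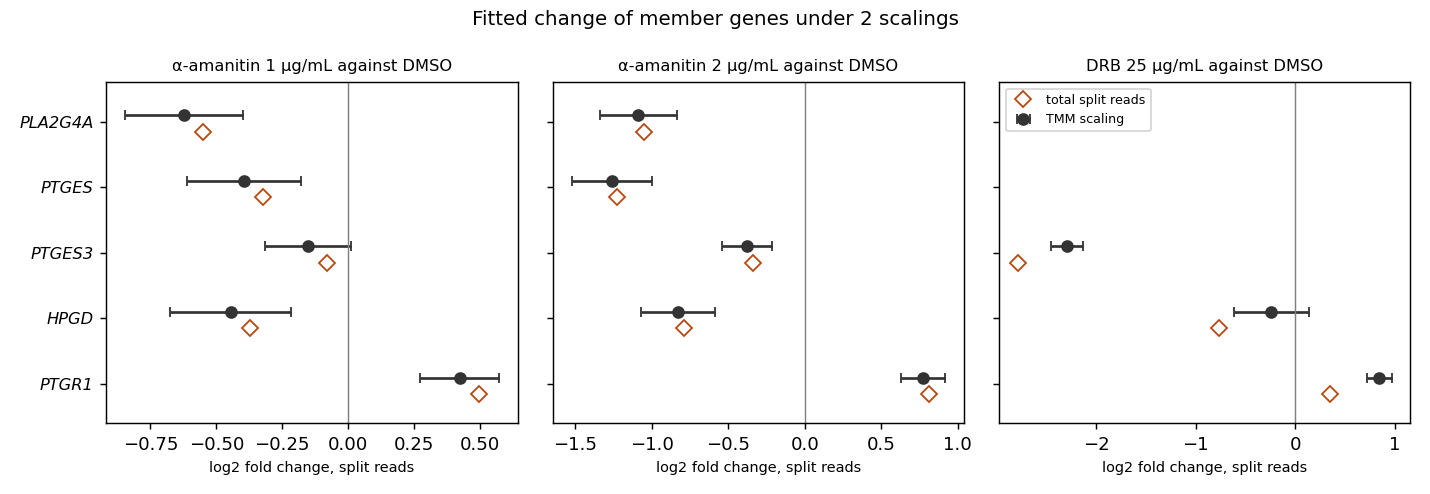
Log2 fold change against DMSO (horizontal axis) with scaling by TMM, with SE as bars, and by total split reads. At 1 and 2 µg/mL α-amanitin PTGR1, HPGD, PTGES3, PTGES and PLA2G4A are shown, and at 25 µg/mL DRB only PTGR1, HPGD and PTGES3. PTGS2 is in no panel. At 25 µg/mL DRB the 2 scalings differ by about 0.5 for every gene shown, and PTGR1 is at 0.85 with TMM and 0.35 with total split reads.

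Inclusion of single exons, which asks whether the transcripts that remained were spliced differently, was expressed as Ψ, the share inc/(inc + 2exc) of inclusion over inclusion and skipping reads. The p-values come from a test of inc/(inc + exc), a share that rises and falls with Ψ but differs from it in size. At 1 µg/mL α-amanitin 0 of 12 member exons and 0% of exons were called, at 2 µg/mL 0 of 12 and 0.029%, and at 10 µg/mL DRB 0 of 17 and 0.0276%. Under an unadjusted p of 0.05 were 3 and 4 member exons with α-amanitin, against 956 and 2198 of all 10341 tested, and 7 with 10 µg/mL DRB, against 2098 of 10875. For 25 µg/mL DRB 13 of 17 were called, all with lower Ψ, against 47.3% of all exons. When any 1 library was left out, no exon in the genome was called. Of the 13, 10 of 11 tested were in PTGES3 and 3 of 6 in PTGR1, and several are nested versions of 1 exon that share reads. An exon needed at least 10 skipping reads over the 6 libraries to be tested. PTGES3 exon 7 and the last exon had them only at 25 µg/mL DRB (17 and 27 pooled). Exon 3 had 62 there and 3 at 10 µg/mL, and the called PTGR1 exons had 8 and 7. None had any in DMSO, so lower Ψ was their only possible direction. These PTGES3 exons entered only through 25 µg/mL DRB, and exon 7 and the last could show no difference at 10 µg/mL.

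In PTGES3 exons 3, 6, 7 and the last exon had lower Ψ at 25 µg/mL DRB, and the skipping reads of the last 3 of these were partly the same reads. Exon 3 had a Ψ of 0.395 (34 inclusion and 26 skipping reads) and 0.604 (110 and 36), against 1.000 in both DMSO libraries (791 and 936 inclusion reads and no skipping reads). The adjusted p was 0.0118 (quasi-binomial model over all exons), and 0.0645 to 0.113 with 1 library left out. Ψ of exon 3 at 10 µg/mL DRB was 0.991 and 1.000, and at 2 µg/mL α-amanitin 0.985 and 1.000, so skipping reads were few and in 1 library of each. Because exon 3 is not a multiple of 3 in length, its loss shifts the reading frame. Exon 6 had a Ψ of 0.482 (41 inclusion and 22 skipping reads) and 0.709 (127 and 26) at 25 µg/mL DRB, against 0.982 (877 and 8) and 0.969 (984 and 16) in DMSO (adjusted p = 0.0118). Only 14 and 13 of those 22 and 26 skipping reads lay on the annotated junction from exon 5 to exon 7, which keeps the frame. Another 4 in the first library joined exon 4 to exon 7, and 4 in the first and 7 and 3 in the second joined exon 5 to the acceptors past the end of the gene. Exon 6 at 10 µg/mL DRB stood at 0.909 and 0.918 (adjusted p = 0.163), and at 2 µg/mL α-amanitin at 0.941 and 0.939 (adjusted p = 0.161). At both of those doses both libraries lay below both DMSO libraries without passing the test. Exon 7, of only 25 nt, had a Ψ of 0.877 (4 skipping reads) and 0.755 (13) at 25 µg/mL DRB and 1.000 in the other libraries. The last exon had a pooled Ψ of 0.542 (27 skipping reads) at 25 µg/mL DRB, against 1 in DMSO. All of these but 3 reads in the second library were the reads to the acceptors past the gene end, and those that left exon 5 counted as skipping exons 6 and 7 and the last exon at once. Exon 5 by contrast had a pooled Ψ of 0.953 at 25 µg/mL DRB and 0.964 in DMSO.

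**Figure D3:**
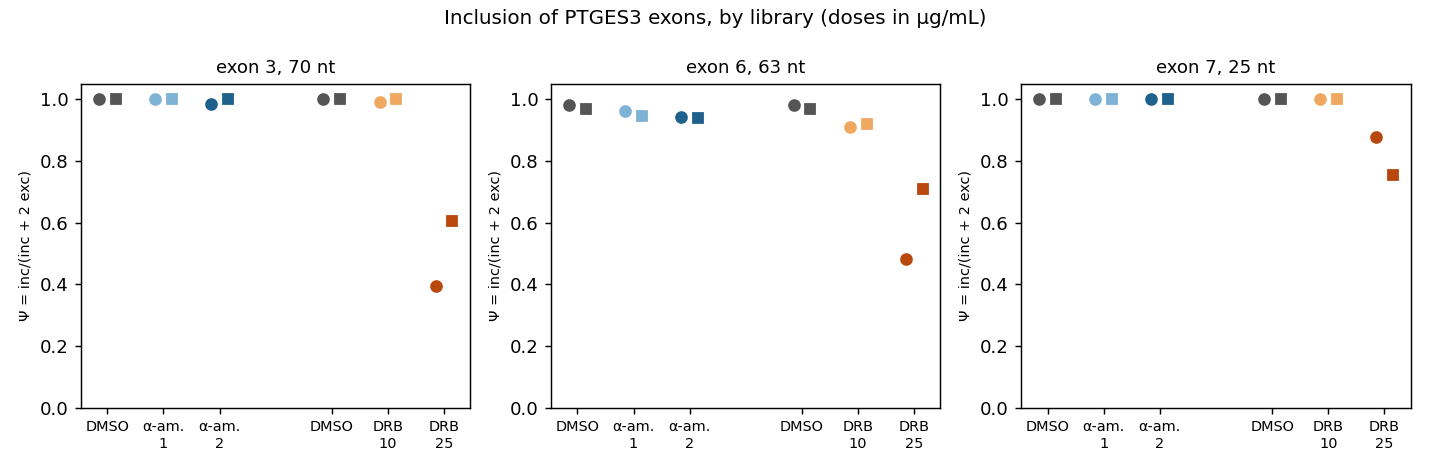
Ψ of PTGES3 exons 3, 6 and 7 (vertical axis, 0 to 1) by condition (horizontal axis), with a point for each library. Exon 3 is at 0.395 and 0.604 at 25 µg/mL DRB and near 1 elsewhere, and exon 6 is already at 0.909 and 0.918 at 10 µg/mL DRB.

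The share that each junction took of its gene's split reads (intron use, limma diffSplice) was tested as well. It was called for 0 of 39 member introns at 1 µg/mL α-amanitin (0.00124% of all introns), 0 of 39 at 2 µg/mL (0.0398%), 0 of 42 at 10 µg/mL DRB (0.624%) and 3 of 42 at 25 µg/mL DRB (2.04%). With an unadjusted p under 0.05 were 0, 0, 3 and 5 member introns, against 3275, 4405, 6295 and 7691 over all introns tested (80486 with α-amanitin and 76728 with DRB). Of the 3 calls 2 were left without the second DRB library and 1 without any other. The unannotated junction chr12:57065631-57066736, which joins PTGES3 exons 2 and 4, had 26 and 33 reads at 25 µg/mL DRB and was unlisted in DMSO (adjusted p = 8.9e-06). It was also listed with 3 reads in 1 library at 10 µg/mL DRB and 5 reads in 1 library at 2 µg/mL α-amanitin. The annotated junction chr12:57058584-57064059, which skips exon 6, had 14 and 13 reads at 25 µg/mL DRB, where the gene had the fewest reads, and 8 and 16 in DMSO (adjusted p = 0.0316). The third call, intron 6 of PTGS2, rested on a value unlisted in 1 DRB library and taken as 0.

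Reads joining PTGES3 to sites beyond its end were listed at 25 µg/mL DRB and in no library of another condition. The acceptor at 57046363 was joined to the donor of exon 7, at 57058560 on chromosome 12, by 4 and 6 reads, and to the donor of exon 5, at 57064059, by 7 reads in the second library. The acceptor at 57046119 was joined to 57064059 by 4 and 3 reads. They lie 10762 and 11006 bases past the annotated end of PTGES3, in no annotated gene and before the next protein-coding gene, ATP5F1B. Both acceptors shown above end their intron in ag, preceded by a run of t in the first. Within the gene, an unannotated junction chr12:57081486-57081782 had 5 and 13 reads at 25 µg/mL DRB only. At these read numbers the absence of a listing in DMSO covers junctions with fewer than the 3 reads that the tables list at the least.

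Unspliced reads gave no call at any single member intron. At 1 and 2 µg/mL α-amanitin 0 of 7 member introns were called, with 0% of all introns at both doses, at 10 µg/mL DRB 0 of 5 with 0%, and at 25 µg/mL DRB 0 of 5 with 5.83%. Under an unadjusted p of 0.05 was 1 member intron at each of the first 3 doses and 4 at 25 µg/mL DRB, against 520 and 1099 of all 9082 with α-amanitin and 645 and 1975 of 6701 with DRB. PTGES3 intron 2 (chr12:57066593-57066736) came closest, with 8 unspliced and 20 split reads and 4 unspliced and 43 split reads at 25 µg/mL DRB, against 0 unspliced and 277 and 312 split reads in DMSO (adjusted p = 0.0547). Over all listed introns of PTGES3, 27.8% and 13.3% of reads were unspliced at 25 µg/mL DRB (88 and 76 reads). In DMSO they were 0.726% and 0.762% (19 and 23 reads), and in the other conditions 0.582% to 1.98%. This share over the whole gene was not tested.

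PTGR1 exon 4 showed a small change of the same direction. It had a Ψ of 0.943 (132 inclusion and 4 skipping reads) and 0.968 (240 and 4) at 25 µg/mL DRB, and 0.962 and 0.963 at 10 µg/mL, whereas no skipping read was listed with α-amanitin or DMSO. The adjusted p was 0.0515 at 25 µg/mL and 0.199 at 10 µg/mL, and 3 longer nested versions of the exon stood at 0.0488. The alternative 106-nt exon at chr9:114326437-114326542 had a pooled Ψ of 0.136 at 1 µg/mL α-amanitin and 0.0915 at 2 µg/mL, against 0.194 in DMSO (adjusted p = 0.749 and 0.247). HPGD exon 6 (chr4:175414302-175414465, 164 nt) had a Ψ of 0.767 and 0.812 at 25 µg/mL DRB, against 0.934 and 0.865 in DMSO. It was not tested with DRB, since too few reads were listed at 10 µg/mL, and it did not pass at either α-amanitin dose (adjusted p = 0.643 and 0.872).

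Other genes of the pathway were called at every dose but 1 µg/mL α-amanitin. Of 36 other prostaglandin genes, 16 were tested with α-amanitin and 13 with DRB. At 1 µg/mL α-amanitin none passed, and at 2 µg/mL, where 6.38% of all genes were called, 0 were higher and 3 lower: the prostaglandin exporter ABCC4 (log2 fold change -0.70, adjusted p = 0.0344), the prostaglandin F synthase AKR1C3 (-0.95, adjusted p = 0.0477) and the phospholipase inhibitor ANXA1 (-0.45, adjusted p = 0.0261). With the replicate block the carbonyl reductase CBR1 was also called there, as higher (0.50, adjusted p = 0.0329). With 10 µg/mL DRB and TMM 0 were higher and 1 lower, ANXA1 (-0.72, adjusted p = 0.0116), against 14.9% called over all genes. With total split reads AKR1B1 (0.52, adjusted p = 0.0374) and CBR1 (0.78, adjusted p = 0.0254) were called higher there, and ANXA1 stayed lower (-0.59, adjusted p = 0.00914). With 25 µg/mL DRB 2 were higher and 5 lower, against 61.3% called over all genes. The aldose reductase AKR1B1, which can make prostaglandin F2α, had 2068 and 3104 split reads at 25 µg/mL DRB, against 1451 and 1834 in DMSO, a log2 fold change of 1.34 (adjusted p = 0.000561). ANXA1 was at 0.42 with TMM (adjusted p = 0.0088) but at -0.07 with total split reads, so its direction flips. CBR1 was called lower at this dose with total split reads only (-0.74, adjusted p = 0.0343). The 5 lower were ABCC4, AKR1C3, PLAA, PTGES2 and PTGR3. ABCC4 had 15 and 194 split reads at 25 µg/mL DRB, against 752 and 720 in DMSO (log2 fold change -2.83, adjusted p = 0.0194). AKR1C3 had 0 and 52 split reads, against 544 and 476 in DMSO. With the replicate block neither ABCC4 nor AKR1C3 was called at this dose (adjusted p = 0.05001 and 0.0576). PTGES2, the third prostaglandin E synthase, had 40 and 169, against 341 and 439 in DMSO (log2 fold change -1.36, adjusted p = 0.0315). PLAA, an activator of phospholipase A2, and the reductase PTGR3 were unlisted at this dose. The list's median log2 fold change was -0.10 at 2 µg/mL α-amanitin (0.05 for all genes), 0.25 at 10 µg/mL DRB (0.03) and -1.60 at 25 µg/mL DRB (-1.01). ANXA1, AKR1B1 and ABCC4 had the most split reads of the list in DMSO.

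Among 14 genes of HSP90 and its cochaperones, the partners of the PTGES3 product, 13 were tested. None passed at 1 µg/mL α-amanitin, 1 was higher and none lower at 2 µg/mL, none were higher and 1 lower at 10 µg/mL DRB, and 2 were higher and 7 lower at 25 µg/mL DRB, where 61.3% of all genes were called. The median log2 fold change of the list was -1.33 at this dose, against -1.01 over all genes. With the replicate block 1 was lower at 1 µg/mL α-amanitin, and 2 were higher and 5 lower at 2 µg/mL, where 22% of all genes were called. The block left none called at 10 µg/mL DRB (10.5% of all genes). At 25 µg/mL DRB it gave 2 higher and 8 lower (55.6% of all genes). HSP90AA1, the inducible HSP90, had 18622 and 31092 split reads at 25 µg/mL DRB, against 12514 and 21686 in DMSO, a log2 fold change of 1.25 (adjusted p = 0.00666). HSP90AB1, the constitutive form, had 4840 and 10698, against 10858 and 14430 in DMSO, a log2 fold change of -0.07 with TMM (adjusted p = 0.735) and -0.55 with total split reads (adjusted p = 0.0128).

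Over the 10 libraries the level of PTGES3 was most like that of CDC123 (Pearson r = 0.995) and NOC3L (r = 0.995), and that of PTGR1 most like that of COL12A1 (r = 0.957) and FCGRT (r = 0.948), among 7052 genes compared on log2(CPM + 1). The points share conditions and scaling, and for PTGES3 both libraries at 25 µg/mL DRB lie far below the rest, so these values are a description.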

How the data were processed

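Polyadenylated RNA of A549 cells was sequenced in 10 libraries, 2 per condition. The authors mapped reads to GRCh37 with STAR (2.7.3a per the submitters' notes) and counted and filtered splice junctions with the IPSA pipeline. The deposited tables hold, as read counts in a text field, split and unspliced reads per intron and inclusion, skipping and retention reads per exon, and in addition a score, the authors' Ψ rescaled for display, which was not used. The lowest split count listed is 3, and introns without a competing junction appear from 11 reads.

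Introns and exons were given to genes by their splice sites in GENCODE 44 (lifted to GRCh37), and introns shared by genes (1695) were left out. Gene values are sums of split reads over introns, scaled by TMM computed in R 4.3.3 and tested by limma 3.58.1 (voom), with the 6 libraries of 1 drug and DMSO in a fit and genes kept at 10 reads in 2 libraries and 15 in all. The fits have 3 residual degrees of freedom. Inclusion against skipping reads, as the share inc/(inc + exc), and unspliced against split reads were tested by a quasi-binomial model with limma's moderated dispersion. The denominator of Ψ, or the sum of unspliced and split reads, had to be at least 10 in every library. Intron use was tested by limma diffSplice. The counts sit inside text, so packages made for count tables were replaced by limma. The fits of gene split reads, exon inclusion and intron use were tested on counts simulated from the α-amanitin and DMSO libraries. P-values are two-sided and Benjamini-Hochberg adjusted over all features (threshold 0.05). Deviations of same-numbered libraries from their condition means correlated in all 3 pairs of conditions of the α-amanitin fit (0.246 to 0.496). The numbers were therefore taken to pair those libraries, and a fit with the replicate block is given there where it changes a call. Within the DRB fit the correlations were 0.0143 to 0.192. Libraries at 10 µg/mL DRB correlated at 0.306 and 0.321 with those of α-amanitin, so they may be paired as well. Those at 25 µg/mL DRB reached at most 0.0585 with any condition. The pairing is read from the data, since the labels number the libraries without naming a shared culture or day. Libraries of a condition differed by more than sampling noise, with a chi-square per degree of freedom between them of 7.06 to 17.2.

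The members and the gene lists were chosen with earlier results of these data known. All members are described; of the other prostaglandin genes those past the threshold at any dose and the 3 most abundant in DMSO are named, and of the HSP90 genes the 2 most abundant. The alternatives were total scaling, filters, the libraries in the fit, the replicate block, introns listed in every library, limma-trend and leaving out each library. Exon inclusion reads per gene and unlisted member introns at 10 reads were added after seeing the data. Exon sequences were read from GRCh37.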

Additional observations from a re-analysis of the deposited data

How the results depend on the processing

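Of 334 counts of calls under alternatives, 247 stayed within 1.5 times the main count and 87 did not. Of 448 single-gene fold changes of members, 394 kept direction and side of the threshold, 48 fell short of it, 5 passed it newly, and 1 reversed: PLA2G4A at 25 µg/mL DRB with unlisted introns at 10 reads, 0.095 on the log2 scale. That setting left 1 member called at 10 µg/mL DRB. Of 97 exon and intron differences, 54 stayed and 43 fell short.

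At 1 µg/mL α-amanitin (0 genes) the replicate block gave 12 genes. At 2 µg/mL α-amanitin (613 genes, 3 members) the replicate block gave 2114 genes and 5 members, introns listed in every library 1263 genes, and only the 2 groups compared 0 genes and 0 members. Between the α-amanitin doses, introns listed in every library gave 6 genes. Introns listed in every library, which holds fewer introns and few of the low members, gave 0 members at 10 µg/mL DRB, 2922 genes and 2 members at 25 µg/mL, and 3039 genes and 2 members at 25 against 10 µg/mL. Only the 2 groups compared gave 1 member at 10 µg/mL DRB.

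For exon inclusion the replicate block, which spends a degree of freedom, gave 0 exons at 2 µg/mL α-amanitin and at 10 and 25 µg/mL DRB, members included, and 0 introns with unspliced reads at 25 µg/mL DRB. Only the 2 groups compared gave 0 exons at 2 µg/mL α-amanitin, 0 at 10 µg/mL DRB and 0 introns with unspliced reads at 25 µg/mL DRB, and a minimum of 20 reads gave 7 exons at 10 µg/mL DRB. No filter on low counts gave 207 introns with unspliced reads at 25 µg/mL DRB. A minimum of 5 split reads gave 0 introns by use at 1 µg/mL α-amanitin, where the replicate block also gave 0, 1772 at 10 µg/mL DRB and 4571 at 25 µg/mL DRB.

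Leaving out 1 library gave 0 to 406 genes and 0 to 1 members at 2 µg/mL α-amanitin, 0 genes and 0 members at 10 µg/mL DRB, 2465 to 4544 genes and 3 to 4 members at 25 µg/mL DRB, and 2572 to 4646 genes and 2 to 5 members at 25 against 10 µg/mL. It gave 0 exons at 2 µg/mL α-amanitin and at 10 and 25 µg/mL DRB, members included, and 0 introns with unspliced reads. Introns by use numbered 0 to 1 and 6 to 16 at 1 and 2 µg/mL α-amanitin, 14 to 848 at 10 µg/mL DRB, and 221 to 1666 at 25 µg/mL DRB, where 1 to 2 member introns were called. A condition left with 1 library is assumed to vary like the others, and the cause of these losses was not tested beyond the fewer libraries in the fit.

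With the DRB doses and DMSO the labels give only a shared number, and the libraries at 10 µg/mL DRB may be paired as well. Calls lost there under the replicate block are therefore less certain. With the block 10.5% of all genes were called at 10 µg/mL DRB and 55.6% at 25 µg/mL DRB. With α-amanitin the block changed no call of a member other than HPGD and PTGES3 at 2 µg/mL.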
